A study of Homo sapiens with 20 samples.

Results

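Parental cells of the multiple myeloma lines AMO1, L363 and RPMI-8226 were compared with parental cells of ARH-77, a B-lymphoblastoid line, by RNA-seq. The comparison used the 8 libraries labelled WT, with 2 replicates of each line, out of 20 libraries in the series, and each myeloma line was given equal weight. None of the 8 cultures received a proteasome inhibitor, and all lines shared the same RPMI-1640 medium with 10% FBS. The other 12 libraries came from sublines of these lines kept in 90 nM bortezomib (BtzR) or carfilzomib (CfzR). ARH-77 stood alone for the B-lymphoblastoid side, so a difference from ARH-77 cannot be told apart from a peculiarity of that line. Each myeloma group was likewise 1 established line and not a set of patients.

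Plasma cells are the antibody-secreting end stage of B-cell differentiation, and multiple myeloma is their malignancy. During this step the transcription factor Blimp-1 (PRDM1) shuts down the B-cell programme that PAX5 maintains, including the antigen receptor, CD20 and HLA class II, while XBP1 enlarges the secretory apparatus of the endoplasmic reticulum (ER). Lymphoblastoid lines are B cells driven by Epstein-Barr virus, whose LMP1 protein signals through NF-κB much as the activated receptor CD40 does, and they keep the surface of an activated B cell. The study compared myeloma surface proteins with those of B-cell acute lymphoblastic leukemia lines, and further with B-lymphoblastoid lines that included ARH-77. The contrast below takes ARH-77 alone as the reference, at the level of RNA.

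RNA levels were given as FPKM, that is, fragments per kilobase of transcript after scaling for how many fragments a library mapped, for 18305 genes, and differences were computed on log2(FPKM + 1). Of these genes, 12588 averaged 1 FPKM or more in any of the 4 parental groups and were tested with limma. A gene was called at an adjusted p under 0.05 and an absolute log2 difference of at least 1. Myeloma minus ARH-77 is positive throughout when myeloma was higher. The FPKM of a library summed to between 457320 and 494850, and 10515 to 11023 genes reached 1 FPKM. Replicates correlated at r = 0.985 in ARH-77 and between 0.995 and 0.998 in the myeloma lines. The median absolute replicate difference was 0.22 log2 units in ARH-77 against 0.07 to 0.12 in the others, so ARH-77 values carry the larger error. The fit shared 1 replicate spread per gene over all groups, so the SEs and p-values below do not reflect that larger error. Since the replicates are cultures of 1 line, p-values measure the spread between cultures, not between lines. Read depth is unknown.

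Several B-cell surface genes were high in ARH-77 and nearly absent from myeloma. CD22, an inhibitory co-receptor of B cells, was at 169 and 231 FPKM in the ARH-77 libraries. It was at 0.02 and 0.04 in AMO1, at 0.02 and 0.06 in L363 and at 0.45 and 0.43 in RPMI-8226. The groups were far apart, and the log2 difference was -7.42 ± 0.10 (SE; adjusted p = 4.6e-17). MS4A1, which encodes CD20, was at 57.7 and 63.0 FPKM in ARH-77 and at 0.07 or less in every myeloma library (log2 difference -5.89 ± 0.06, adjusted p = 7.8e-18). CD79A, the signalling chain of the B-cell receptor, was at 172 and 212 FPKM in ARH-77 against 0.22 to 1.54 in myeloma (log2 difference -6.63 ± 0.12).

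**Figure D1:**
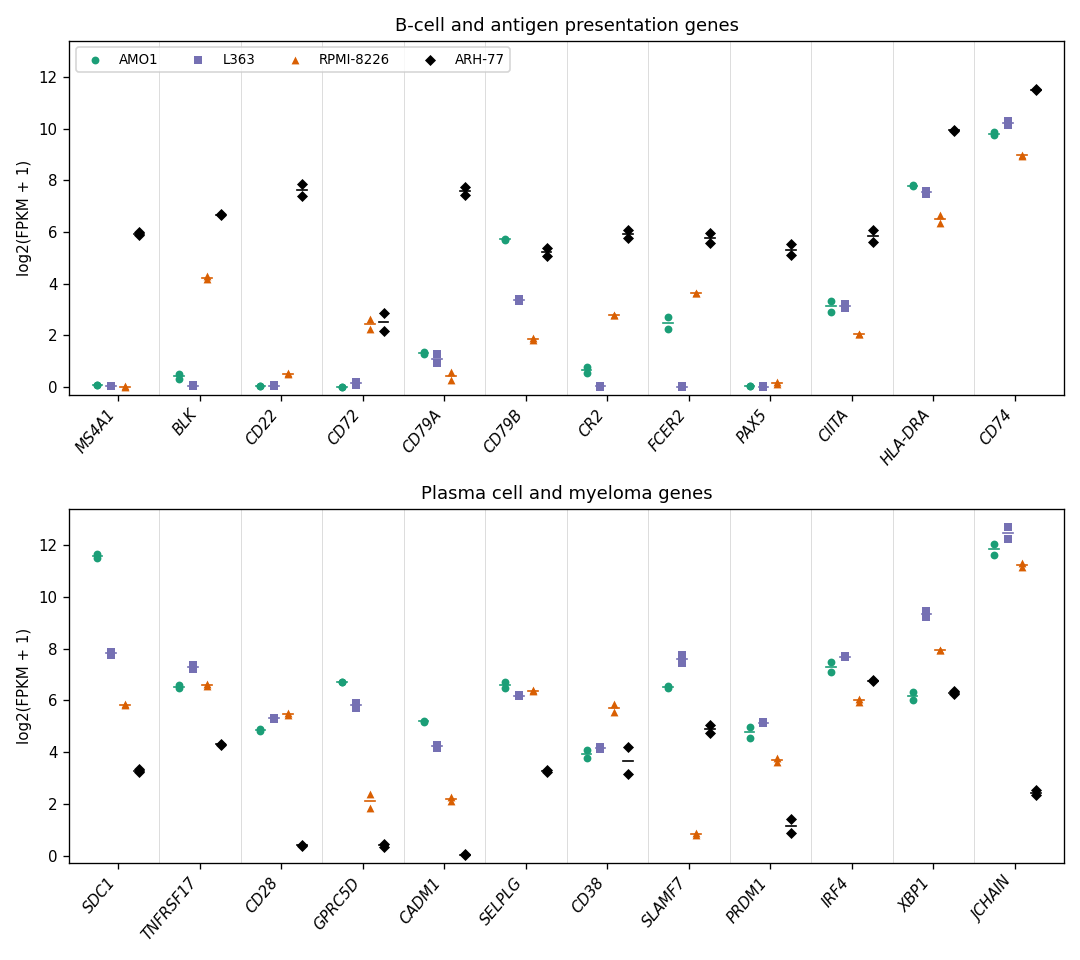
Each point is 1 parental library and each short bar the mean of the 2 replicates of a line, on a log2(FPKM + 1) axis, for 12 B-cell and antigen presentation genes (top) and 12 plasma cell and myeloma genes (bottom). ARH-77 lies far above all myeloma points for MS4A1, CD22, CD79A and PAX5 and far below them for SDC1, CD28 and JCHAIN, whereas CD72, CD79B, CD38, SLAMF7, IRF4 and XBP1 overlap.

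Over all genes, 1351 of 12588 (10.7%) were called higher in myeloma and 1562 (12.4%) lower, and the median log2 difference was -0.05. All 6 myeloma libraries lay above both ARH-77 libraries for 2117 genes (16.8%) and below both for 2927 genes (23.3%). Genes that were also called numbered 963 higher (7.65%) and 1350 lower (10.7%), so 388 of the higher calls and 212 of the lower calls had overlapping libraries. The scatter of mean levels shows both sets on either side of the diagonal. These shares over all genes are the reference for the counts of list members below.

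**Figure D2:**
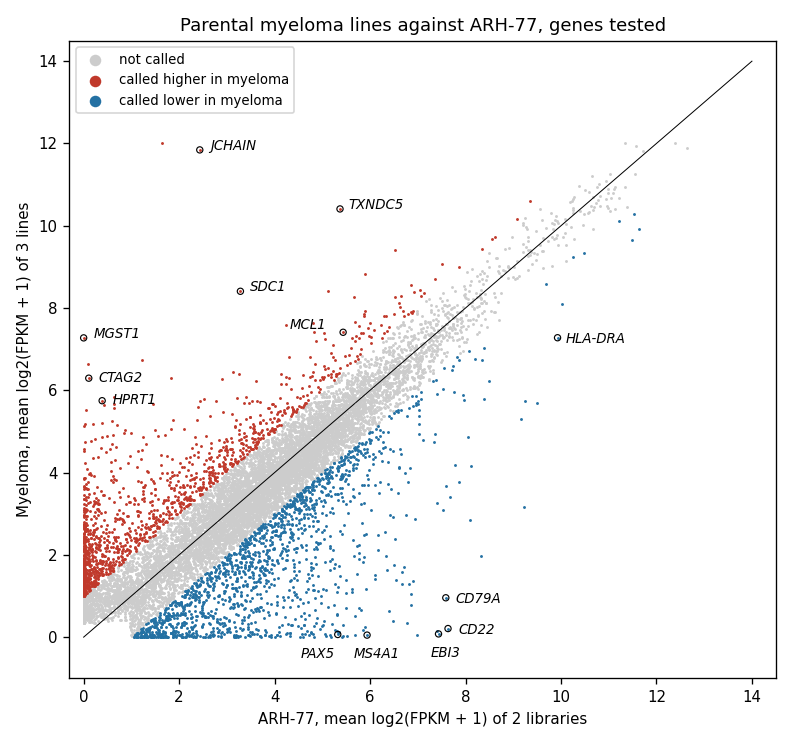
Each point is 1 tested gene, with the mean log2(FPKM + 1) of the 2 ARH-77 libraries on the horizontal axis and that of the 3 myeloma lines, equally weighted, on the vertical axis; the line marks equality. Red genes were called higher in myeloma, such as JCHAIN, TXNDC5 and SDC1, and blue genes lower, such as CD22, EBI3, CD79A and HLA-DRA.

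Among 24 B-cell surface antigens, 21 passed the filter on low values, 19 were called lower in myeloma and 1 higher, with a median log2 difference of -4.00 (-0.05 over all genes). The receptors of complement and IgE were low in all 3 lines. CR2 was at 66.9 and 53.4 FPKM in ARH-77 and at most 5.99 in myeloma. FCER2, which encodes CD23, was at 62.0 and 46.5 FPKM against 0 to 11.5. The exceptions were line-specific. CD79B, the partner of CD79A, was at 51.3 and 52.5 FPKM in AMO1, above the 32.3 and 40.4 of ARH-77, although its mean over the lines was lower (log2 difference -1.57 ± 0.09). CD72, a further inhibitory co-receptor, was at 5.28 and 3.73 FPKM in RPMI-8226 against 3.54 and 6.23 in ARH-77, and at 0.15 or less in AMO1 and L363. CD37, a tetraspanin of mature B cells, was kept in AMO1 (45.9 and 55.6 FPKM) and RPMI-8226 (71.9 and 68.6 FPKM) but was near 0.5 in L363. CD180, a Toll-like receptor relative, was the member called higher, on the strength of 9.72 and 11.5 FPKM in AMO1; without AMO1 its log2 difference was 0.21.

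Downstream of the receptor, of 24 B-cell receptor signalling genes, all tested, 18 were called lower and 1 higher (2 without the first ARH-77 library), with a median of -1.92. The kinase BLK was at 98.9 and 101 FPKM in ARH-77, at 17.2 and 18.5 in RPMI-8226 and below 0.5 in AMO1 and L363 (log2 difference -5.09 ± 0.07). SYK was an exception by line, with 19.0 and 18.4 FPKM in RPMI-8226 against 14.7 and 13.0 in ARH-77 and at most 0.29 elsewhere. BTK was at 40.6 and 36.5 FPKM in RPMI-8226 and at 16.2 and 23.0 in AMO1, against 47.7 and 52.2 in ARH-77 and near 0.5 in L363.

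Of 22 B-cell transcription factors, 20 were tested, 10 were called lower and 2 higher, and the median was -0.92. The shares over all genes were 12.4% lower and 10.7% higher, so the higher calls were near that of all genes. PAX5 was at 45.4 and 33.6 FPKM in ARH-77 and at most 0.14 in any myeloma library (log2 difference -5.26 ± 0.09, adjusted p = 4.9e-16). IRF8 was at 101 and 80.7 FPKM in ARH-77, at 12.0 and 13.5 in RPMI-8226 and at most 1.59 in the other lines. SPI1, which encodes PU.1, overlapped through RPMI-8226, where it reached 20.3 and 22.5 FPKM against 6.48 and 7.22 in ARH-77. The general B-lineage factors POU2AF1 (log2 difference 0.04 ± 0.14), IKZF1 (-0.55 ± 0.10) and IKZF3 (-0.60 ± 0.11) were not called. BACH2, a repressor of Blimp-1 in B cells, was called higher in myeloma at low levels, with 0.77 to 2.34 FPKM against 0.01 and 0.02 in ARH-77 (log2 difference 1.19 ± 0.11). Without L363 its difference was 0.97, under the threshold of 1, and it was not called. KLF2, the other member called higher, was at 8.64 to 65.3 FPKM in myeloma against 0.65 and 1.18 in ARH-77. Its log2 difference was 3.32 ± 0.18, and its call held under all alternatives.

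On the plasma cell side, 8 transcription factors were listed, 7 were tested, 4 were called higher and 0 lower by limma, with a median of 1.06. In the downward direction 0 had an unadjusted p under 0.05, and without L363 2 were called higher. PRDM1 was at 22.5 and 30.2 FPKM in AMO1, at 34.4 and 34.2 in L363, at 11.3 and 12.7 in RPMI-8226 and at 0.83 and 1.67 in ARH-77. Every myeloma library was above both ARH-77 libraries (log2 difference 3.39 ± 0.15, adjusted p = 1.8e-11). IRF4, which activated B cells and plasma cells share, was at 109 and 106 FPKM in ARH-77, inside the myeloma range of 60.7 to 206 (log2 difference 0.23 ± 0.13, adjusted p = 0.11). XBP1 was at 693 and 603 FPKM in L363 and at 246 and 248 in RPMI-8226. In AMO1 it was at 63.2 and 78.3 FPKM, level with the 80.9 and 74.3 of ARH-77, so the call (log2 difference 1.52 ± 0.09) rested on L363 and RPMI-8226, and without L363 the difference was 0.76. TENT5C, a poly(A) polymerase that is often mutated in myeloma, was at 15.9 to 86.7 FPKM in myeloma and at 0.02 in both ARH-77 libraries.

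Of 26 plasma cell and myeloma surface genes, 25 were tested. Over all genes 10.7% were called higher and 12.4% lower, and of these 25, 12 were called higher and 2 lower, with a median of 0.92. The 2 became 1 without RPMI-8226 or without the second ARH-77 library, and 4 without AMO1. SDC1 encodes syndecan-1 (CD138), the standard plasma cell marker. It was at 3266 and 2883 FPKM in AMO1, at 231 and 217 in L363, at 56.3 and 54.9 in RPMI-8226 and at 8.40 and 9.09 in ARH-77. No libraries overlapped between myeloma and ARH-77 (log2 difference 5.12 ± 0.14, adjusted p = 1.1e-13), yet AMO1 and RPMI-8226 differed more than RPMI-8226 and ARH-77 did. TNFRSF17 encodes BCMA, a receptor for plasma cell survival ligands. It was at 87.0 to 165 FPKM in myeloma and at 19.0 and 18.4 in ARH-77, a ratio of mean FPKM of 6.13 (log2 difference 2.51 ± 0.12). CD28, a T-cell costimulatory receptor that myeloma cells can carry, was even across lines at 27.2 to 44.2 FPKM against 0.29 and 0.33 (log2 difference 4.82 ± 0.08). GPRC5D, an orphan receptor of plasma cells, was at 102 and 104 FPKM in AMO1, at 59.1 and 51.4 in L363 and at 4.16 and 2.60 in RPMI-8226, against 0.25 and 0.37 in ARH-77.

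Some surface genes of this list were not called, or were called with overlapping libraries. CD38, a cell-surface NAD hydrolase, was at 12.6 to 17.4 FPKM in AMO1 and L363, at 45.6 and 56.7 in RPMI-8226 and at 7.85 and 17.4 in ARH-77 (log2 difference 0.92 ± 0.21, not called). It was called without the second ARH-77 library (1.45), without AMO1 (1.25) and without L363 (1.14). SLAMF7 was at 88.6 to 216 FPKM in AMO1 and L363, at 32.1 and 25.8 in ARH-77 and at 0.74 and 0.82 in RPMI-8226. Its mean difference of 0.09 ± 0.11 thus joined 2 lines above ARH-77 with 1 line far below it. CD48, another SLAM-family member, was called lower (log2 difference -1.15 ± 0.10), yet RPMI-8226 alone lay below ARH-77, at 6.02 and 5.74 FPKM against 330 to 401 in AMO1 and L363 and 189 and 241 in ARH-77. Without RPMI-8226 its difference was 0.76. In contrast, CD27, a receptor of memory B cells and plasma cells, was called lower with no overlap. It was at 31.4 and 34.0 FPKM in ARH-77 and at most 1.87 in myeloma.

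The study named surface proteins that set myeloma cells apart from B-cell acute lymphoblastic leukemia lines, from B-lymphoblastoid lines or from both. SELPLG, CADM1, GGT1 and CD72 were named there against the leukemia lines. The proteomics was on these lines among others, so the genes named here are not independent evidence of direction. Besides SDC1 and CD28, SELPLG, the selectin ligand PSGL-1, was at 71.0 to 103 FPKM in myeloma and at 8.83 and 8.34 in ARH-77 (log2 difference 3.12 ± 0.09). CADM1, an adhesion molecule, was at 3.32 to 35.7 FPKM against 0.03 and 0.01 (log2 difference 3.83 ± 0.09). GGT1, a surface peptidase of glutathione, was at 40.6 to 90.9 FPKM against 34.0 and 28.7; all 6 libraries were above, but the log2 difference of 0.85 ± 0.07 did not reach the threshold of 1, which it passed without AMO1 (1.07). Of the B-cell markers, CD22, MS4A1 and CD72 are described above.

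Most secretory genes differed by small amounts, and the larger differences were upward. Of 69 ER folding and secretory genes, all tested, 25 were called higher and 1 lower, with a median of 0.78, and 43 had all 6 myeloma libraries above both of ARH-77. The shares over all genes were 10.7% called higher, 12.4% called lower and 16.8% with all 6 above. JCHAIN, the joining chain of IgA and IgM, was at 4245 and 3121 FPKM in AMO1, at 6693 and 4812 in L363 and at 2522 and 2282 in RPMI-8226. In ARH-77 it was at 4.76 and 4.06 FPKM (log2 difference 9.41 ± 0.15, adjusted p = 3.8e-16). TXNDC5, a disulfide isomerase, was at 840 to 2096 FPKM against 43.6 and 37.4 (log2 difference 5.04 ± 0.08). MZB1, a cochaperone of antibody folding, was at 489 to 1018 FPKM against 86.2 and 94.7 (log2 difference 2.89 ± 0.09). KDELR3, a retrieval receptor of ER proteins, was at 4.81 to 12.9 FPKM against 0.15 and 0.31.

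General chaperones differed less. HSPA5, which encodes BiP, was at 570 and 367 FPKM in AMO1, at 305 and 266 in L363, at 289 and 250 in RPMI-8226 and at 242 and 138 in ARH-77, with a log2 difference of 0.84 ± 0.20 that was not called. HSP90B1, or GRP94, was called, at 458 to 1182 FPKM against 411 and 347 (log2 difference 1.12 ± 0.09). ERO1B was the member called lower. This ER oxidase was at 12.5 and 11.3 FPKM in ARH-77 and at 1.2 to 2.26 in myeloma (log2 difference -2.34 ± 0.08).

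The ER stress response element (ERSE), CCAAT followed by 9 free bases and CCACG, is the promoter sequence through which ATF6 and XBP1 act on such genes. RefSeq promoters of GRCh38.p14, from 250 bases before to 50 after the start site, were searched for it on both strands. It was found in 7 of the 61 tested ER genes with a promoter in the table (11.5%) and in 22 of all 27305 promoters (0.0806%). The match was found on either side: it was held by 2 of 22 promoters of genes called higher, by 4 of 38 of genes not called and by that of the gene called lower. A shorter element, UPRE (TGACGTGG), was in 5 of the 61 (8.20%) and in 217 of all promoters (0.795%). These are matches of letters and not measured sites. The 4 stretches below show the element, with its CCAAT and CCACG parts (or their reverse complements CGTGG and ATTGG) in capitals, in 2 genes called higher (for HSP90B1, 1 of its 2 matches), 1 not called and the 1 called lower, each written 5′ to 3′ on the strand of the gene.
XBP1, chr22:28800583-28800641, minus strand: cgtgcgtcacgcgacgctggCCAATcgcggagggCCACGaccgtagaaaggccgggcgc
HSP90B1, chr12:103930301-103930359, plus strand: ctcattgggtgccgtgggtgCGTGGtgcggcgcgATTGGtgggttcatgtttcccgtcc
HSPA5, chr9:125241371-125241429, minus strand: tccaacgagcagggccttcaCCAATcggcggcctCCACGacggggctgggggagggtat
ERO1B, chr1:236282163-236282208, minus strand: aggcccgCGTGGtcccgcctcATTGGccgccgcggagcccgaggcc

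The octamer ATGCAAAT, bound by the OCT factors of B cells, was in 1 of 15 promoters of B-cell surface antigens (6.67%) and in 492 of all promoters (1.80%).

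**Figure D3:**
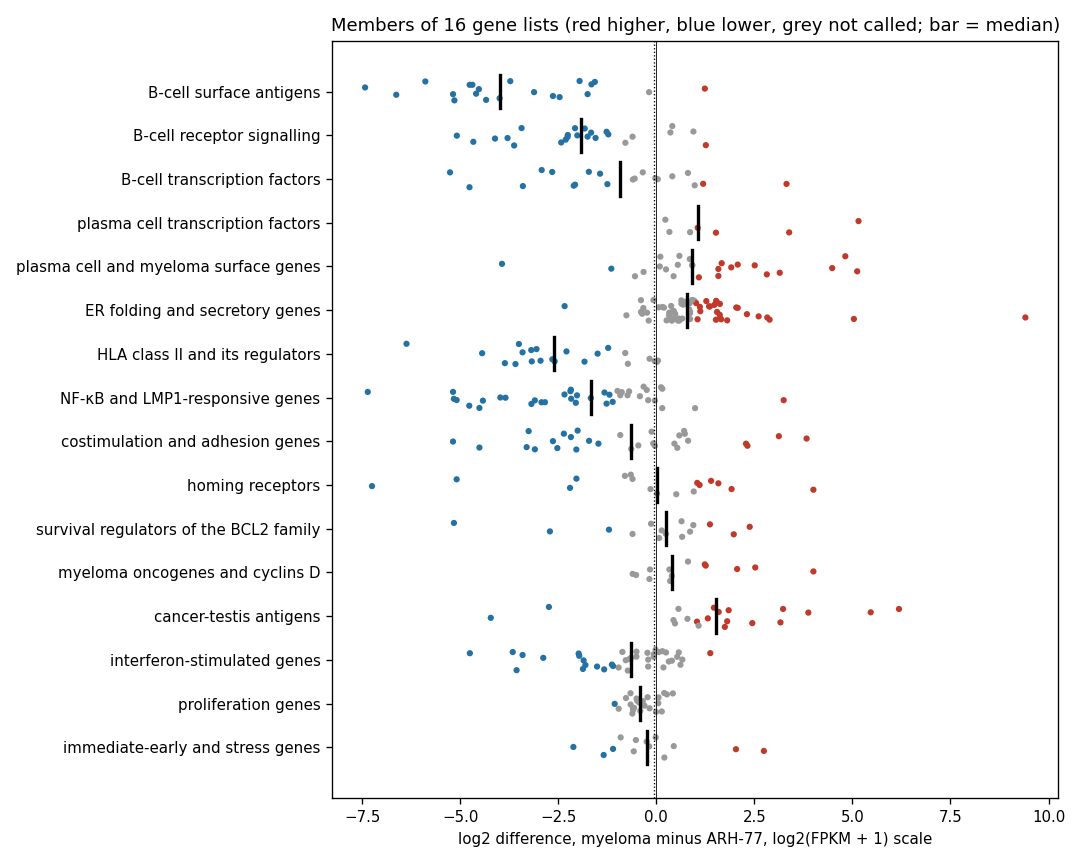
Each point is 1 tested member of a gene list, placed by its log2 difference (myeloma minus ARH-77) and coloured red if called higher, blue if called lower and grey otherwise; black bars are list medians and the dotted line the median of all genes, -0.05. B-cell surface antigens (median -4.00), HLA class II (-2.62) and B-cell receptor signalling (-1.92) lie to the left, and cancer-testis antigens (1.53) and the plasma cell lists to the right.

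HLA class II presents antigen to helper T cells. Of 22 class II genes and regulators, all tested, 16 were called lower and 0 higher by limma (0 higher at an unadjusted p under 0.05 as well), with a median of -2.62. CTSS (-0.04 ± 0.14), IFI30 (0.04 ± 0.12), RFXANK (0.01 ± 0.08) and RFX5 (-0.17 ± 0.08) were among the 6 not called. HLA-DRA was at 967 and 979 FPKM in ARH-77, at 218 and 223 in AMO1, at 191 and 178 in L363 and at 80.8 and 99.9 in RPMI-8226. The myeloma lines thus lay well below ARH-77 but kept a sizeable level (log2 difference -2.65 ± 0.14, adjusted p = 2.8e-10). CD74, the invariant chain, was at 2841 and 2917 FPKM in ARH-77 and at 487 to 1248 in myeloma. CIITA, the master regulator of class II, was at 66.2 and 47.6 FPKM against 3.18 to 9.17 (log2 difference -3.05 ± 0.14). The DQ genes showed a wider range between lines, with HLA-DQB1 at 51.7 and 56.8 FPKM in AMO1, at 52.1 and 46.2 in L363 and at 1.01 and 1.46 in RPMI-8226, against 230 and 210 in ARH-77. HLA-DRB3, which was among the largest differences (-6.37 ± 0.10), and HLA-DRB5 are carried by some haplotypes only and share sequence with HLA-DRB1, so their values are uncertain.

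**Figure D4:**
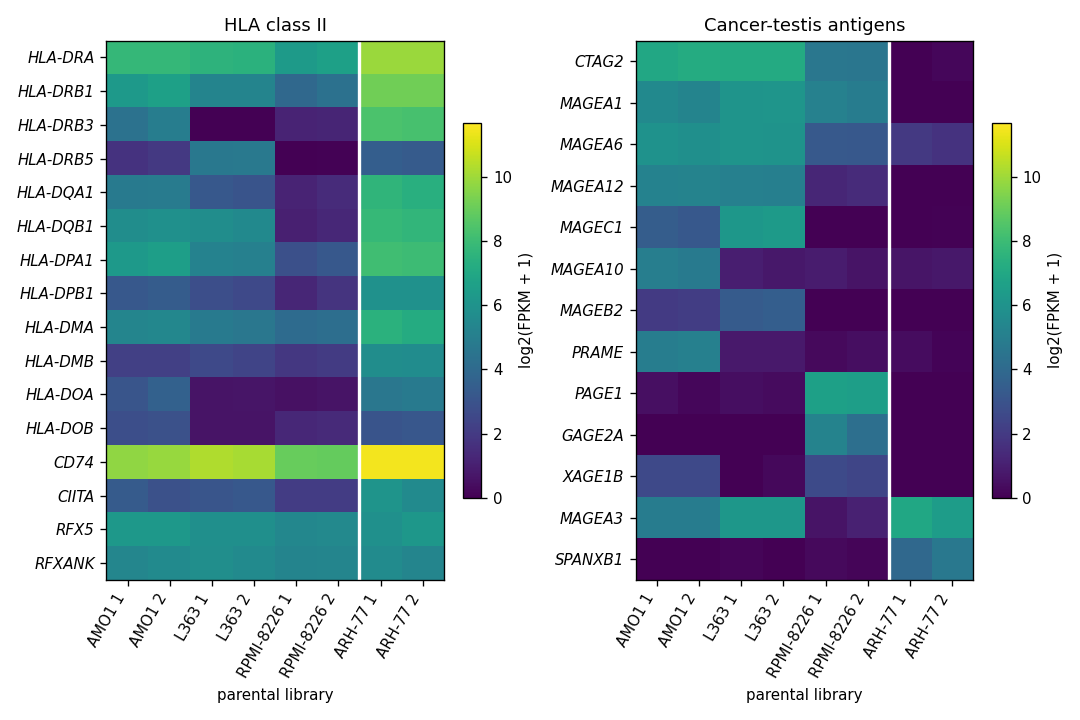
Colour gives log2(FPKM + 1) in each parental library (columns, ARH-77 to the right of the white line) for HLA class II genes and regulators (left) and cancer-testis antigens (right). Most class II chains and CIITA are highest in ARH-77, HLA-DRB5 is highest in L363, RFX5 and RFXANK are level, and the cancer-testis genes differ from one myeloma line to the next, with CTAG2 and MAGEA1 in all 3 lines.

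Genes of the NF-κB and LMP1 response were lower in myeloma as well. Of 40 such genes, 39 were tested, 24 were called lower and 1 higher, with a median of -1.67. After quantile normalization, or without L363 or its first library, 2 were called higher. EBI3, an interleukin subunit first found in virus-infected B cells, was at 205 and 145 FPKM in ARH-77 and at most 0.14 in myeloma (log2 difference -7.36 ± 0.12). The receptor CD40 was at 78.6 and 32.5 FPKM against at most 1.86. BCL2A1, an antiapoptotic target of NF-κB, was at 58.4 and 25.0 FPKM against at most 0.21, and the chemokine CCL22 at 58.4 and 33.4 FPKM against 0.93 to 1.21. The first ARH-77 library was the higher for CD40, BCL2A1 and CCL22, and also for the adaptor TRAF1, at 64.6 and 18.3 FPKM. Some feedback and subunit genes were not called, among them NFKB2 (-0.32 ± 0.17), RELB (-0.24 ± 0.20) and TNFAIP3 (0.15 ± 0.18). CCL3 was the member called higher, at 415 and 512 FPKM in AMO1, 4.19 and 4.54 in L363 and at most 0.27 in RPMI-8226, against 0.64 and 0.34 in ARH-77.

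Of 29 costimulation and adhesion genes, all tested, 13 were called lower and 4 higher, with a median of -0.64. The shares over all genes were 12.4% lower and 10.7% higher, so the higher calls were near that of all genes. CD80, the ligand of CD28, was at 27.6 and 19.0 FPKM in ARH-77 and at most 0.10 in myeloma, the reverse of CD28 itself. ITGB1, the integrin β1 chain, was at 11.5 to 77.0 FPKM in myeloma against 4.50 and 5.44, whereas ITGB2, the leukocyte β2 chain, was at 13.3 and 13.9 FPKM in ARH-77 and at most 2.70 in myeloma. The adhesion receptors ICAM1 (-0.04 ± 0.18) and ITGA4 (-0.08 ± 0.09) were not called.

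Homing receptors were split, with 6 of 17 called higher, 4 lower and a median of 0.02, against 10.7% higher and 12.4% lower over all genes. Only 2 of the 6, CCR1 and P2RY8, had no overlap of libraries, and without RPMI-8226 the 6 became 2. CCR2, for one, was at 49.2 and 51.0 FPKM in RPMI-8226 and at 0.06 or less in the other parental libraries. CCR7 and GPR183, which guide B cells in lymphoid tissue, were at 192 and 146 FPKM and at 40.1 and 29.8 FPKM in ARH-77 and at most 0.18 in myeloma. CXCR4, the bone marrow homing receptor, was level, at 47.2 to 77.7 FPKM against 72.3 and 55.5 (log2 difference 0.02 ± 0.11). CCR10 was at 14.7 and 18.4 FPKM in AMO1 and 55.6 and 47.0 in L363, but at 2.50 and 2.07 in RPMI-8226, below ARH-77 (4.14 and 3.49).

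Among 16 regulators of the BCL2 family, 15 were tested, 3 were called higher (5 without RPMI-8226) and 3 lower, with a median of 0.25. The shares over all genes were 10.7% higher and 12.4% lower. MCL1, on which plasma cells depend for survival, was at 334 and 368 FPKM in AMO1, at 205 and 210 in L363, at 63.6 and 68.8 in RPMI-8226 and at 41.6 and 43.0 in ARH-77. All myeloma libraries were higher (log2 difference 1.97 ± 0.10, adjusted p = 7.4e-11). BCL2 (0.25 ± 0.17) and BCL2L1 (0.07 ± 0.17) were not called. PMAIP1, which encodes the MCL1 antagonist NOXA, was at 96.1 and 133 FPKM in ARH-77 and at 10.0 to 25.5 in myeloma (log2 difference -2.71 ± 0.26), and BCL2L11, or BIM, was at 15.6 to 20.2 against 5.70 and 6.66.

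Of 15 myeloma oncogenes and cyclins D, 13 were tested. Against shares of 10.7% higher and 12.4% lower over all genes, 5 were called higher and 0 lower by limma, with a median of 0.40. In the downward direction 4 had an unadjusted p under 0.05, among them NSD2 (-0.60 ± 0.09) and CCND3 (-0.51 ± 0.11), neither of which reached the threshold of 1. MAF was at 206 and 211 FPKM in RPMI-8226, the line with a MAF translocation, and at 0.06 or less in all other parental libraries. CCR1, a chemokine receptor, was at 47.3 to 68.6 FPKM in L363 and RPMI-8226 and at most 0.61 in AMO1 and ARH-77. MYC differed by little between the myeloma lines, at 200 to 277 FPKM against 101 and 103 (log2 difference 1.24 ± 0.11).

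Cancer-testis antigens are germ-cell proteins that tumours can switch on. Of 31 in the list, 30 were in the table and 20 were tested. Of these, 13 were called higher and 2 lower, with a median of 1.53. The shares over all genes were 10.7% higher and 12.4% lower. CTAG2 was at 128 and 148 FPKM in AMO1, at 143 in both L363 libraries, at 23.6 and 22.8 in RPMI-8226 and at 0 and 0.16 in ARH-77 (log2 difference 6.19 ± 0.08). MAGEA1 was at 28.7 to 68.3 FPKM against 0.03 in both. Of the 13, CTAG2, MAGEA1, MAGEA6 and MAGEA12 were called in each of the 3 lines. MAGEA12 was at 31.7 to 36.7 FPKM in AMO1 and L363 and at 1.41 and 1.69 in RPMI-8226, and was listed at 0 in both ARH-77 libraries. The other 9 were called in 1 or 2 lines, such as MAGEC1 (8.34 to 80.7 FPKM in AMO1 and L363, at most 0.01 in RPMI-8226) and PAGE1 (101 and 92.7 FPKM in RPMI-8226, at most 0.39 in the others). MAGEA6 was at 8.24 to 65.6 FPKM in myeloma against 2.86 and 2.23 in ARH-77. MAGEA3 went the other way, with 125 and 88.1 FPKM in ARH-77, but it is nearly identical to MAGEA6, and reads could be split between these genes.

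Of 40 interferon-stimulated genes, 39 were tested, 14 were called lower and 1 higher (3 without AMO1 and 2 without RPMI-8226), with a median of -0.64. IFITM2 was at 35.7 and 42.2 FPKM in ARH-77 and at most 1.24 in myeloma. MX1, an antiviral GTPase, was at 50.6 and 41.3 FPKM in L363, above the 26.9 and 17.3 of ARH-77, but at most 4.02 in the other lines. Proliferation genes differed little, with 1 of 24 called lower (AURKA, -1.06 ± 0.11), 0 called higher by limma and a median of -0.42. After rescaling each library to an equal sum, or without AMO1, L363 or the first ARH-77 library, 2 were called lower. In the upward direction 3 had an unadjusted p under 0.05, among them TK1 (0.27 ± 0.07) and BUB1 (0.42 ± 0.11). Of 17 immediate-early and stress genes, 13 were tested, 2 were called higher (1 without RPMI-8226) and 3 lower (1 without L363), and the median was -0.25. The shares over all genes were 10.7% higher and 12.4% lower.

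Markers of other cell types gave the following. T-cell markers summed to 9.58 to 18.3 FPKM in a myeloma library and to 44.1 and 45.0 in ARH-77, where LCK alone was at 38.1 and 37.0; CD3D was listed at 0 in all 8 libraries, 8 of the 10 listed were tested, 2 were called higher and 1 lower, and the median was 0.49. The part of other cells in these differences was not tested. Myeloid markers summed to 4.55 to 20.3 FPKM in myeloma and 8.07 to 8.42 in ARH-77, with CD14, CSF1R and MPO below 0.3 everywhere, and of the 3 tested 1 was called lower (median 0.28). Erythroid markers summed to at most 4.24 FPKM, and of the 2 tested, the near-identical HBA1 and HBA2, 0 were called by limma although both had an unadjusted p under 0.05 (median 0.51). Epithelial and stromal markers summed to 5 to 151 FPKM in myeloma and 5.66 to 5.97 in ARH-77. The upper end was RPMI-8226, which had EPCAM at 56.2 and 56.6 FPKM and KRT18 at 87.2 and 86.4, while COL1A2, COL3A1 and DCN were at 0.01 or less in all libraries. These 2 genes were the calls among the 5 tested (median 0.45).

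The 10 largest differences in each direction with no overlap between libraries included genes outside the lists. IGLL5 was highest of all, at 250 and 260 FPKM in AMO1, 27962 and 23549 in L363 and 11564 and 9645 in RPMI-8226 against 0.95 and 4.03 (log2 difference 10.36 ± 0.46). IGLL1 was at 2.50 and 2.40 FPKM in AMO1, where it was not called against ARH-77 (1.21 and 1.44 FPKM), and at 206 to 1630 in L363 and RPMI-8226. Both share sequence with the immunoglobulin λ constant genes, so their reads may come from λ light chain transcripts. MGST1, a microsomal glutathione transferase, was at 111 to 209 FPKM in myeloma and was listed at 0 in both ARH-77 libraries. HPRT1, the purine salvage enzyme that is often used as a housekeeping reference, was at 10.7 and 10.9 FPKM in AMO1, at 166 and 201 in L363 and at 74.1 and 67.2 in RPMI-8226. In ARH-77 it was at 0.18 and 0.45 FPKM (log2 difference 5.36 ± 0.16). The lysosomal protease LGMN (log2 difference 5.20 ± 0.09) and ASS1 (5.20 ± 0.28), of arginine synthesis, were the others. On the lower side stood the adaptors SASH3 (-6.94 ± 0.07) and SAMSN1 (-6.43 ± 0.13), the protease NAPSA (-6.08 ± 0.13), the transcription factor MSC (-6.08 ± 0.14) and GSTP1. GSTP1, a glutathione transferase, was at 448 and 533 FPKM in AMO1, close to the 584 and 606 of ARH-77, but at most 0.45 in L363 and RPMI-8226.

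Genes in an on or off state were counted without a test. With on meaning at least 5 FPKM in all libraries of one side and off at most 0.5 FPKM in all of the other, 32 genes were on in myeloma and off in ARH-77, and 104 were on in ARH-77 and off in myeloma. The first set held CD28, TENT5C, LGMN, HPRT1, MAGEA1, CTAG2 and MGST1 from above. It also held BHLHA15, which encodes the secretory cell factor MIST1, and TSPO, a mitochondrial outer membrane protein, named here after their values were seen. The second held CD22, MS4A1, PAX5, EBI3, CCR7, LCK, TCL1A and CD80.

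Each myeloma line differed from ARH-77 in more genes than from another myeloma line. Called genes numbered 3180 (25.3%) for AMO1, 3298 (26.2%) for L363 and 3714 (29.5%) for RPMI-8226 against ARH-77. Between myeloma lines they numbered 2174 (17.3%) for AMO1 against L363, 2860 (22.7%) for AMO1 against RPMI-8226 and 2872 (22.8%) for L363 against RPMI-8226. Across tested genes, libraries of 2 myeloma lines correlated at r = 0.837 to 0.879 and those of a myeloma line and ARH-77 at 0.774 to 0.829, given as descriptions. The 3 myeloma lines differed among themselves in 10515 genes (83.5%) by the moderated F test at adjusted p under 0.05, which has no size threshold. That test passed for 1261 of the 1351 genes called higher (93.3%) and for 1146 of the 1562 called lower (73.4%).

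The same contrast was taken in the BtzR sublines, all grown in 90 nM bortezomib. The labels were checked first. The 2 libraries labelled AMO1 CfzR correlated with L363 at r = 0.987 to 0.988 and with AMO1 at 0.871 to 0.876, so they go against their label. They entered the fit only through the shared estimate of replicate spread, and a fit of the 8 parental libraries alone gave 1352 genes higher and 1563 lower. The RPMI-8226 BtzR libraries, although they had MAF at 179 and 183 FPKM, stood further from their parental line (r = 0.901 to 0.903) than those of AMO1 (0.944 to 0.949), L363 (0.984 to 0.985) and ARH-77 (0.980 to 0.986).

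Among BtzR lines, 1456 genes (11.6%) were called higher in myeloma and 1509 (12.0%) lower. Of the 1351 genes called higher in parental lines 1000 were called higher again (74.0%) and 3 lower, and of the 1562 called lower 1207 were called lower again (77.3%) and 1 higher. The change of the contrast itself was called in 637 genes (5.06%). For CD22 the log2 difference was -7.96 in BtzR lines and -7.42 in parental lines, for JCHAIN 8.56 and 9.41, and for SDC1 4.53 and 5.12, and none of these changes was called. CD28 fell from 4.82 to 3.33 (change -1.49 ± 0.12, adjusted p = 4.5e-07) and TNFRSF17 from 2.51 to 0.93 (change -1.58 ± 0.17). In RPMI-8226 BtzR, CD28 was at 0.14 and 0.19 FPKM and TNFRSF17 at 7.86 and 4.93, and without RPMI-8226 the changes were 0.40 and -0.45 and were not called. GPRC5D, at 0.17 and 0.11 FPKM in RPMI-8226 BtzR and 6.58 and 10.6 in AMO1 BtzR, went from 4.48 to 2.07 (change -2.42 ± 0.24).

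**Figure D5:**
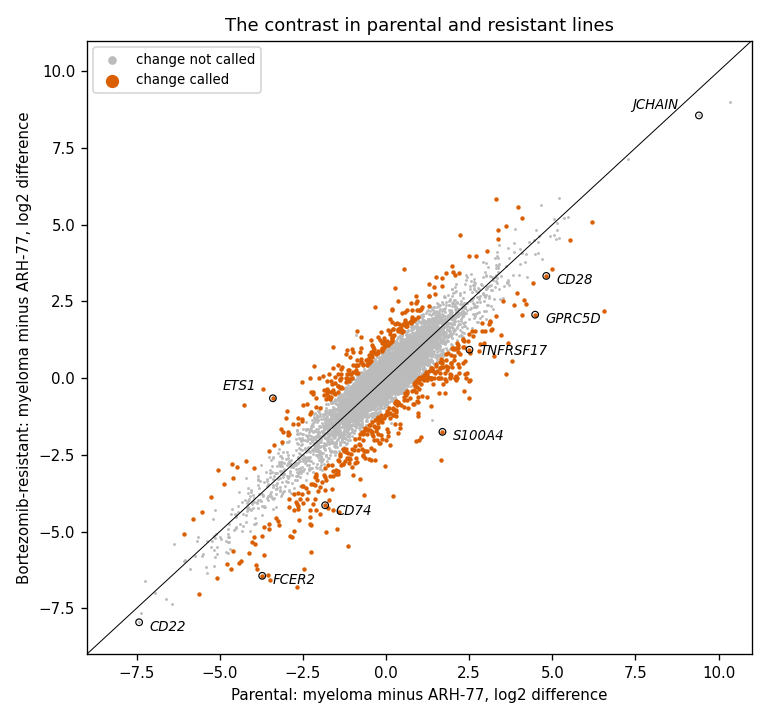
Each point is 1 tested gene, with its log2 difference between myeloma and ARH-77 in parental lines on the horizontal axis and in bortezomib-resistant lines on the vertical axis; the line marks equality and orange genes had a called change. CD22 and JCHAIN lie near the line, CD28, GPRC5D, TNFRSF17, CD74, FCER2 and S100A4 below it and ETS1 above it.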

How the data were processed

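RNA-seq libraries were assigned to groups from the line, the resistance and the replicate given in each label. The authors deposited FPKM values per gene and library; the submitters' processing notes name HISAT2 2.0.4, Bowtie2 2.2.5 and RSEM 1.2.12 without their roles, and the genome build is not given in the sources used here. Sequencing was on the BGISEQ-500 platform. The FPKM table gives no read counts, so depth is unknown and no counting interval was computed.

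FPKM values were transformed as log2(FPKM + 1), which understates the change of low genes. Genes with a mean of at least 1 FPKM in any of the 4 parental groups were kept. limma 3.58.1 in R 4.3.3 fitted 1 mean per group over all 20 libraries (10 residual degrees of freedom) with a mean-variance trend, and p-values were adjusted by the Benjamini-Hochberg method over the 12588 genes. The myeloma side was the mean of the 3 lines. The method was tested on simulated data of 12588 genes for this contrast: of 200 genes shifted by 2 log2 units, 200 were recovered, and 0 others were called. Unlike the data, the simulation had no differences between myeloma lines and gave ARH-77 the same replicate spread as the other groups. Only genes above the lowest levels were shifted. The result is thus a check of the method and not an error rate for these data. Symbols followed NCBI gene ID. Python 3.11.15, numpy 2.4.6, pandas 2.3.3 and matplotlib 3.10.9 were used for tables and figures.

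The comparison, the gene lists and the named genes were chosen with earlier results of these data known. Named genes were a set of anchor genes (B-cell, class II, plasma cell and survival genes), the 10 largest called differences in each direction without overlap of libraries (leaving out XIST and Y-linked genes), up to 4 called members in each direction per list, and up to 5 genes called in opposite directions in different lines; other members of the lists were named after their values were seen. Alternatives were other pseudocounts, filters and scalings, no trend, a replicate block, parental libraries only, array weights, and leaving out each library or line. Some genes of the lists are not reported here.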

Additional observations from a re-analysis of the deposited data

Results flagged for a closer look

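The difference between myeloma and ARH-77 changed in the bortezomib-resistant lines, by the test of the change itself, for 10 of the genes described as anchors or as largest differences. Over all genes the change was called in 637 of 12588 (5.06%). The largest differences were picked by their parental values, which also enter the change, so smaller differences in resistant lines are favoured among them. CTAG2, IGLL1 and MSC, which came from that pick, all moved that way. For 7 of the 10 genes the change was not called when RPMI-8226 was left out. HLA-DRA changed by -1.50 ± 0.20 (0.75 without RPMI-8226), CD74 by -2.31 ± 0.25 (0.43), CTAG2 by -1.11 ± 0.11 (0.57) and CD28 by -1.49 ± 0.12 (0.40), so the direction turned. TNFRSF17 changed by -1.58 (-0.45 without RPMI-8226), SELPLG by -1.31 (-0.39) and IGLL1 by -1.01 (-0.53). HLA-DRA was at 0.35 and 0.85 FPKM in RPMI-8226 BtzR and at 1803 and 1688 in AMO1 BtzR. Called with and without RPMI-8226 were FCER2, with -2.72 ± 0.18 (-1.95), the chemokine CCL22, with -1.61 ± 0.20 (-1.60), and MSC, with 1.02 ± 0.20 (1.39). Without AMO1 the change of MSC was 0.20 (adjusted p = 0.50 by limma). CCL22 was at 143 and 149 FPKM in ARH-77 BtzR against 58.4 and 33.4 in parental ARH-77.

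In 198 genes 1 myeloma line was called above ARH-77 and another below it, among them SLAMF7 and RGS1. The first 5, ranked by the smaller of their opposing differences, follow, each with the limma difference between the lines furthest apart. S100A4, a calcium-binding protein of motile cells, was at 254 and 502 FPKM in AMO1, at 0.24 and 0.12 in L363, at 299 and 307 in RPMI-8226 and at 12.0 and 17.6 in ARH-77, and AMO1 minus L363 was 8.25 ± 0.28. Its relative S100A6 gave 6.75 ± 0.21 for the same pair, with 88.8 and 164 FPKM in AMO1 and 0.17 and 0.09 in L363. SULF2, an extracellular sulfatase, was at 145 and 151 FPKM in L363 against 0.34 and 0.55 in AMO1 and 10.6 and 11.8 in ARH-77 (AMO1 minus L363 -6.69 ± 0.11). ACTL8, an actin-like cancer-testis gene, was at 450 and 366 FPKM in RPMI-8226, at 0.43 and 0.35 in AMO1 and at 8.99 and 10.9 in ARH-77 (AMO1 minus RPMI-8226 -8.19 ± 0.21). LGALS3, galectin-3, was at 132 and 178 FPKM in AMO1, at 2.02 and 2.01 in RPMI-8226 and at 18.8 and 21.0 in ARH-77 (AMO1 minus RPMI-8226 5.68 ± 0.23).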

How the results depend on the processing

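The counts of genes called higher and lower, 1351 and 1562, were within 1.5 times under all alternatives: 2004 and 2004 with a pseudocount of 0.1, 1984 and 2099 with 0.01, 1164 and 1185 with a 5 FPKM filter, 1614 and 1899 after rescaling each library to an equal sum, and 1519 and 1408 after quantile normalization. Leaving out 1 library gave 1334 to 1477 higher and 1465 to 1750 lower, and leaving out 1 line 1355 to 1500 and 1568 to 1666. Same-numbered replicates of different groups had deviations that correlated between -0.03 and 0.30, highest for ARH-77 with RPMI-8226 and with AMO1. These values cannot settle whether same-numbered replicates were handled together. With the replicate block 1352 genes were higher and 1563 lower. With array weights per group, where parental ARH-77 had a weight of 0.233, 1341 genes were higher and 1557 lower. The 637 genes whose contrast changed in resistant lines became 1307 and 1236 with pseudocounts of 0.1 and 0.01 and 1089 without L363. Genes on in myeloma and off in ARH-77 rose from 32 to 64 without AMO1, 69 without L363 and 67 without RPMI-8226, as fewer libraries had to be on. Of 116 named genes, 83 kept their call under all alternatives, and 82 also their direction; IRF4, not called, was at -0.12 without L363. The direction turned without L363 for SLAMF7 (-1.22) and SULF2 (-1.75), without RPMI-8226 for CD48 (0.76), RGS1 (-0.21), MAF (-0.042) and EPCAM (-0.0592), without AMO1 or L363 for ACTL8 (1.26 and 1.12), and without AMO1 for LGALS3 (-1.24). HSPA5, not called, was called without the first ARH-77 library, and CD38 without the second, without AMO1 or without L363; GGT1 was called without AMO1.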
